A study of Mus musculus with 4 samples.

Results

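Interferon-response neutrophils are neutrophils of bone marrow that carry transcripts of the type I interferon program. They were taken here as barcodes in which 200 or more genes were detected and mitochondrial transcripts were no more than 10% of UMIs (unique molecular identifiers, 1 per captured transcript). S100a8 and S100a9, the abundant alarmins of neutrophils, had to make up at least 3% of the UMIs. Camp, Ngp and Ltf, secondary granule genes of immature neutrophils, had to stay below 1%. The last condition was at least 3 UMIs of Ifit1, Ifit3 and Rsad2 together. Of 49567 kept barcodes, 9698 met the conditions on S100 and granule genes and are called gated neutrophils below. The 565 interferon-response neutrophils were 5.83% of these and 1.14% of all kept barcodes, and the remaining 9133 are the other gated neutrophils.

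The barcodes came from flow-sorted nucleated bone marrow cells of 10-week-old mice, profiled at the 3' end of transcripts on the 10x Genomics Chromium platform. There were 2 libraries from WT mice and 2 from YAP1 heterozygote mice, which carry 1 changed copy of Yap1, a transcriptional coactivator that Hippo signalling restrains. The sources used here name no allele, strain or sort gate, and do not say whether the replicates were separate animals or pools. The Y-linked gene Ddx3y was expressed in both replicate 1 libraries (101 and 68.0 CPM) and Xist in both replicate 2 libraries (878 and 857 CPM), a difference between the replicates that both genotypes share. The p-values measure only the spread between these libraries, which may be technical. A library held 112806900 to 119855112 UMIs. A gated neutrophil held few of them: the median of an interferon-response neutrophil was 2904 UMIs in WT replicate 1, 3419 in WT replicate 2, 3883.5 in the first YAP1 heterozygote library and 3456 in the other, against 3281 to 3988 in the other gated neutrophils. Between 22 and 60 barcodes recurred in each pair of libraries, and none of the recurring ones was an interferon-response neutrophil in both.

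As background, type I interferons bind the receptor formed by Ifnar1 and Ifnar2. The receptor's kinases Jak1 and Tyk2 then activate the transcription factor complex ISGF3, which contains Stat2 and Irf9. ISGF3 binds the interferon-stimulated response element (ISRE) in promoters and switches on antiviral genes, among them Ifit1, Ifit3 and Rsad2. Type II interferon acts through another receptor and the gamma-activated sequence (GAS). Neutrophils are short-lived phagocytes that leave the marrow when mature, and a subset with interferon-stimulated transcripts is known from single-cell studies of mouse bone marrow and blood.

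Promoters of some of the genes that chose or characterised these cells are shown first. They were picked because the letters of the element that ISGF3 binds can be read in them. Each is the 160 bases before the start of the RefSeq transcript (GRCm38.p6), 5' to 3' on the gene's strand, and capitals mark each match to the ISRE core on either strand, which is GAAA, any 2 bases and GAAA again. Ifit1 (chr19:34640729-34640888, plus strand), Ifit3 (chr19:34583369-34583528, plus strand) and Rsad2 (chr12:26456453-26456612, minus strand) belonged to the rule. Isg15 (chr4:156200819-156200978, minus strand), Slfn8 (chr11:83020811-83020970, minus strand) and Gbp7 (chr3:142530176-142530335, plus strand) did not.
Ifit1: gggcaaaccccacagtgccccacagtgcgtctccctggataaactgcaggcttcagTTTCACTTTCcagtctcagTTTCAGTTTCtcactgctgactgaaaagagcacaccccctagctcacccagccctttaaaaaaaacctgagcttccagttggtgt
Ifit3: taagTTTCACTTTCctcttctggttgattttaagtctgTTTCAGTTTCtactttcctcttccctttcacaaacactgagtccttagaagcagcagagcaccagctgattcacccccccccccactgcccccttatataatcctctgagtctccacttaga
Rsad2: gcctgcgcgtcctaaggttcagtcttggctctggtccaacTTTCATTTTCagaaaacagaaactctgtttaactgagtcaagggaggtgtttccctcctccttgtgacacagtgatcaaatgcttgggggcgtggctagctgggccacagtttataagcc
Isg15: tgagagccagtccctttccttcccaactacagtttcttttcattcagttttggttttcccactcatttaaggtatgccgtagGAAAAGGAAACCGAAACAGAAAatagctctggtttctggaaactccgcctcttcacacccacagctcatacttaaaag
Slfn8: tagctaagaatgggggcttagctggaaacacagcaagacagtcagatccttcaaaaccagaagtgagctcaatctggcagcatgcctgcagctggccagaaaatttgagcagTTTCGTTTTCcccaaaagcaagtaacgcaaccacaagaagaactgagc
Gbp7: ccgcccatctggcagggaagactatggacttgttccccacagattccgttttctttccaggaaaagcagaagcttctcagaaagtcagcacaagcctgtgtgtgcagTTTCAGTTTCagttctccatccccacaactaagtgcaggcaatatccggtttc
Ifit1 and Ifit3 each held 2 copies of the core, which in Ifit1 began 104 and 85 bases before the start, while in Isg15 3 overlapping matches formed 1 run. Many other genes named below had no match in this window. They were Oasl2, Oasl1, Cmpk2, Irf7, Irf9, Herc6, Ube2l6, Ifih1, Ddx58, Ifit2, Tap1, Stat2 and Cxcl10. Of these, Stat2 and Cxcl10 held 1 match further upstream, beginning 222 and 213 bases before the start. Ddx60, Gbp2, Igtp, Irgm1, Slfn5 and Ifit3b held a match, and Rtp4 was not among the promoter entries. Over 250 bases before the start, the ISRE core occurred in 2.98% of all 32851 promoter windows.

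The neutrophil label was checked against marker genes that the rule did not use. Retnlg, a secreted resistin-like protein of mature neutrophils, stood at 25343 to 36908 CPM over the 4 libraries (26972 to 35499 CPM in the other gated neutrophils), where CPM is the level in UMIs per 1000000 summed UMIs of a class in a library. All 10 mature neutrophil markers checked, with S100a8 and S100a9 left out, were detected, with a summed level of 40149, 52630, 47324 and 52514 CPM against 39502, 48869, 44999 and 47052 CPM in the other gated neutrophils. The 3% limit on S100 genes also let in other cells. Barcodes with S100a8 and S100a9 under 10% of UMIs numbered 97 of the 565 (17.2%) and 1442 of the other gated neutrophils (15.8%). They contributed 19.0% to 31.2% of the UMIs of interferon-response neutrophils and 28.1% to 34.1% of those of the others.

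Transcripts of precursors and of other lineages were present, in barcodes on both sides of the 10% limit. Elane, the neutrophil elastase made by promyelocytes, was at 7799 to 10796 CPM in the other gated neutrophils with S100 under 10% and at 321 to 942 CPM in those with at least 10%. Globin and other erythroid markers (5 of 5 detected) summed to 3396 to 9781 CPM in interferon-response neutrophils and to 61.8 to 2163 CPM in the others. A single cell held between 40.6% and 96.7% of the Hbb-bs UMIs of the interferon-response neutrophils of a library. With S100 at least 10%, the erythroid sum was 40.003 to 4354.6 CPM. B lineage markers (6 of 6 detected) summed to 134 to 684 CPM and 222 to 294 CPM, and monocyte markers (9 of 9 detected) to 1246 to 1909 CPM and 1502 to 1747 CPM. Dendritic cell markers (5 of 5 detected) summed to 14.6 to 401 CPM and 87.4 to 130.3 CPM. Basophil and mast cell markers (4 of 4 detected) were at 2437 CPM in YAP1 heterozygote replicate 1, and were at 9.17 to 13.7 CPM in the other 3 libraries, against 109.9 to 457 CPM. Megakaryocyte markers (4 of 4 detected) were at 7.80 to 485 CPM against 13.7 to 68.9 CPM. Of the T and NK cell markers, Klrb1c and Gzma were at 0 in interferon-response neutrophils. The class comparison was also run with S100 at least 10%, which left 468 interferon-response neutrophils, without barcodes holding markers of other cells, without Scrublet doublets and without the top cell of each gene. Values with the stricter S100 limit are given below beside those with the rule as it stands.

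Rsad2 did most of the choosing. Its 3031 UMIs were 69.6% of the rule UMIs of interferon-response neutrophils, with 762 for Ifit1 and 565 for Ifit3. Rsad2 encodes viperin, an enzyme that makes a chain-terminating nucleotide. Ifit1 encodes a protein that holds back translation of foreign RNA, and Ifit3 a protein of the same family. Rsad2 was present in 553 of the 565 cells, Ifit1 in 230 and Ifit3 in 176. In 272 cells (48.1%) all rule UMIs were Rsad2, and in 105 (18.6%) all 3 genes were present. Every library held both kinds: the Rsad2-only cells were 56 of 131 and 80 of 151 in the WT libraries, and 43 of 96 and 93 of 187 in the YAP1 heterozygote libraries, replicate 1 first. As levels in these cells, which the rule fixed and which are given as a description, Rsad2 was at 1350, 1395, 929.6 and 1186 CPM, Ifit1 at 306, 329, 266 and 318 CPM and Ifit3 at 246, 245, 196 and 224 CPM in the same order. The number of rule UMIs per cell had a median of 5 in each library and a maximum of 51, 193, 50 and 78.

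**Figure D1:**
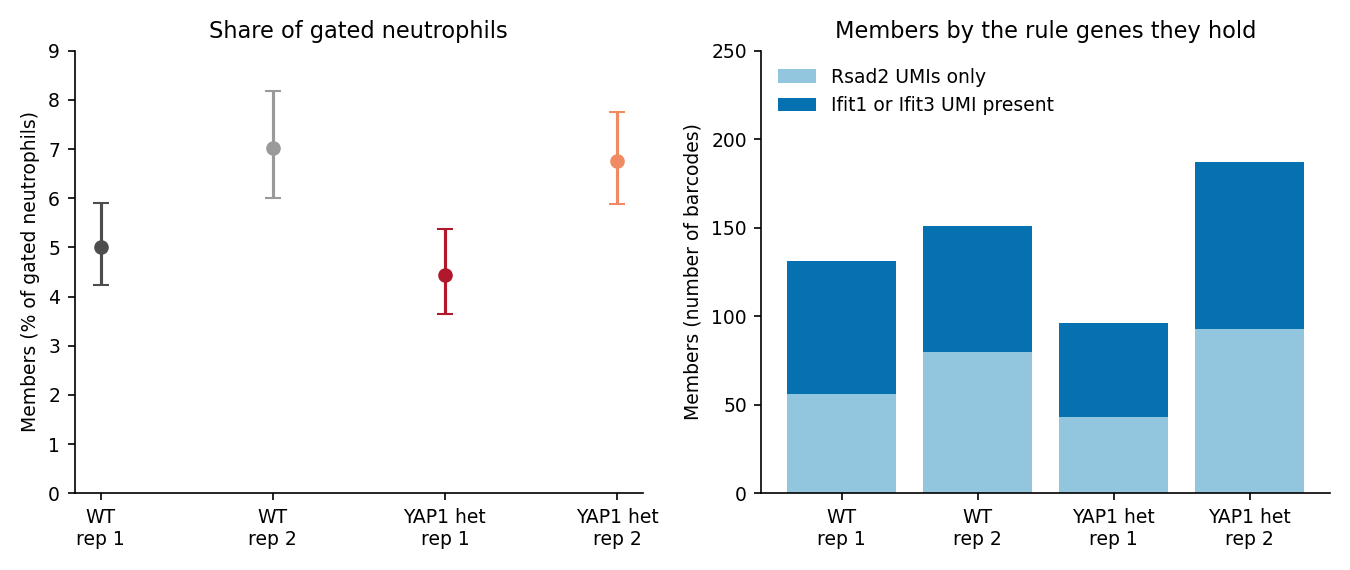
Left, interferon-response neutrophils as a percentage of gated neutrophils in each library, with Wilson 95% intervals; replicate 2 lies above replicate 1 in both genotypes (7.02% against 5.01% in WT, 6.77% against 4.43% in YAP1 heterozygote). Right, their number by the rule genes they hold; Rsad2-only cells number 56, 80, 43 and 93 and cells with an Ifit1 or Ifit3 UMI 75, 71, 53 and 94.

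The Rsad2-only cells held Isg15 and Usp18 at an intermediate level. Isg15, a ubiquitin-like modifier of antiviral proteins, was at 248 to 481 CPM in them, at 797 to 1028 CPM in cells with an Ifit1 or Ifit3 UMI, and at 33.7 to 39.6 CPM in gated neutrophils with no rule UMI. The 3 ranges over the 4 libraries did not overlap. The same order held for Usp18, the protease that removes Isg15 from proteins and blocks the receptor (17.7 to 70.7, 106 to 158 and 2.43 to 4.67 CPM). Ifit2, a paralog of Ifit1, was at 0 to 13.3 CPM in Rsad2-only cells at 47.4 to 147 CPM in the cells with Ifit1 or Ifit3 and at 1.75 to 2.68 CPM in those with no rule UMI, so for this gene the order did not hold. Csf3r, the receptor for granulocyte colony-stimulating factor, was close in both kinds, at 1018 to 1190 and 1079 to 1171 CPM. Hbb-bs, a beta-globin, was higher in the Rsad2-only cells of every library, at 4195 to 12821 CPM against 13.4 to 3725 CPM, but single cells carried it, with 96.7% and 95.8% of the Hbb-bs UMIs of interferon-response neutrophils in 1 cell in WT replicates 1 and 2, and 65.1% and 40.6% in the YAP1 heterozygote libraries.

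Barcodes rich in globin held Rsad2 too. Barcodes with at least 20% globin UMIs, whatever their S100 level, numbered 20, 111, 50 and 160 in the 4 libraries, and 35.6% to 50.0% of them held at least 3 rule UMIs. Their rule UMIs were nearly all Rsad2: 342 to 992 CPM, against 4.49 to 21.5 CPM for Ifit1 and 0 to 2.39 CPM for Ifit3. They also held Isg15 (105 to 625 CPM), while Oasl2 and Rtp4 were at 8.33 to 12.1 and 6.05 to 11.96 CPM. Of the interferon-response neutrophils 5 had at least 20% globin UMIs, and the part of such barcodes in the results was not tested beyond the settings given below.

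The share of barcodes with at least 3 rule UMIs varied across the marrow. It was 1.52% to 2.69% in all barcodes with S100 under 3%. In B lineage barcodes (at least 3 Cd79a and Cd79b UMIs and S100 under 3%), 0.282% to 0.361% held at least 3 rule UMIs. Their median depth was 2700 to 3256.5 UMIs, and the part of free RNA in this share was not tested. Gated neutrophils, at a median depth of 3276 to 3982 UMIs, held them in 4.43% to 7.02%. Neutrophils with Camp, Ngp and Ltf at 1% of UMIs or more, which are the less mature ones, held them in 1.23% to 2.13%, although their median depth was higher, at 8890 to 10103 UMIs.

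The 3 markers that the rule did not use followed it in every library. Isg15 (chromosome 4, 156199424 to 156200818, minus strand, GRCm38) was at 669, 751, 539 and 566 CPM in interferon-response neutrophils, with the libraries in the order WT 1, WT 2, YAP1 heterozygote 1, YAP1 heterozygote 2 here and below. In the other gated neutrophils it was at 47.5, 49.4, 43.8 and 55.6 CPM. The lowest level in interferon-response neutrophils was several times the highest in the others. The log2 fold change was 3.76 ± 0.11 (SE), with an adjusted p of 5.2e-11 from edgeR's quasi-likelihood test with the library as a block. Oasl2, a relative of the oligoadenylate synthetases, was at 363, 378, 366 and 341 CPM against 57.3, 56.3, 52.6 and 74.2 CPM (chromosome 5, 114896936 to 114912234, plus strand), a log2 fold change of 2.68 ± 0.11 (adjusted p 8.1e-10, edgeR). Rtp4, an interferon-induced zinc-finger protein, was at 288, 382, 258 and 446 CPM against 61.6, 85.8, 55.2 and 107 CPM (chromosome 16, 23520291 to 23614222, plus strand). Its log2 fold change was 2.25 ± 0.09 (adjusted p 4.5e-10, edgeR); it overlaps Masp1 on the other strand, and in both classes replicate 2 was above replicate 1 of the same genotype. With the stricter S100 limit the 3 changes were 3.46, 2.40 and 1.88.

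**Figure D2:**
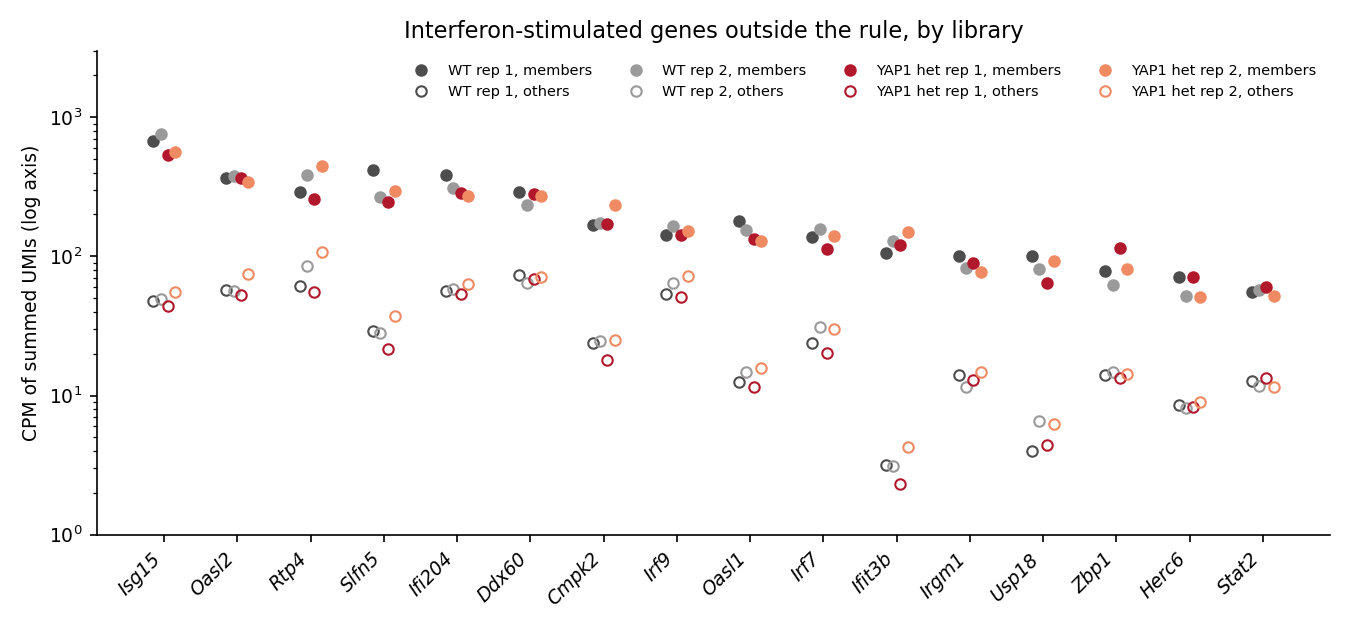
CPM of summed UMIs (log axis) of 16 interferon-stimulated genes outside the rule, in interferon-response neutrophils (filled) and the other gated neutrophils (open) of each library. For each gene the 4 filled points lie above the 4 open points, from Isg15 (539 to 751 against 43.8 to 55.6 CPM) to Stat2 (52.2 to 60.3 against 11.5 to 13.4 CPM). The genes were picked among named genes called higher, so the separation largely follows from the choice. List genes that were not called, such as Mavs, Cgas and Irf3, are not drawn.

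Not every cell showed these markers. An Isg15 UMI was present in 63.4%, 62.3%, 62.5% and 64.2% of interferon-response neutrophils and in 14.2%, 15.0%, 13.8% and 15.6% of the others. After thinning each cell to 1500 UMIs, which left out 14 interferon-response neutrophils, the shares were 46.8%, 44.0%, 42.6% and 41.5% against 7.41%, 6.89%, 6.24% and 8.51%. Between 8.56% and 13.5% of interferon-response neutrophils of a library held no UMI of Isg15, Oasl2 or Rtp4, against 53.1% to 62.3% of the others. All 3 were present in 29.8% to 36.9% and in 2.15% to 3.18%.

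Across gated neutrophils, marker levels were higher at higher numbers of rule UMIs. Just outside the limit, cells with 2 rule UMIs (104, 84, 67 and 136 barcodes) held 218, 185, 139 and 204 CPM of Isg15. Just inside, cells with exactly 3 (40, 51, 29 and 59 barcodes) held 322, 209, 238 and 245 CPM. Cells with none held 33.7 to 39.6 CPM, and cells with over 10 (22, 24, 13 and 28 barcodes) held 1841, 2209, 1788 and 1549 CPM. Between them the order was not strict, since YAP1 heterozygote replicate 1 held 152 CPM at 4 to 5 rule UMIs. Usp18 went from 2.43 to 4.67 CPM at 0 rule UMIs to 4.36 to 26.0 CPM at 3 and 230 to 366 CPM above 10. Retnlg showed no such gradient, with 26044 to 35422 CPM at 0 and 19322 to 40676 CPM above 10. These bins share libraries and hold few cells at the upper end, so they are a description.

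**Figure D3:**
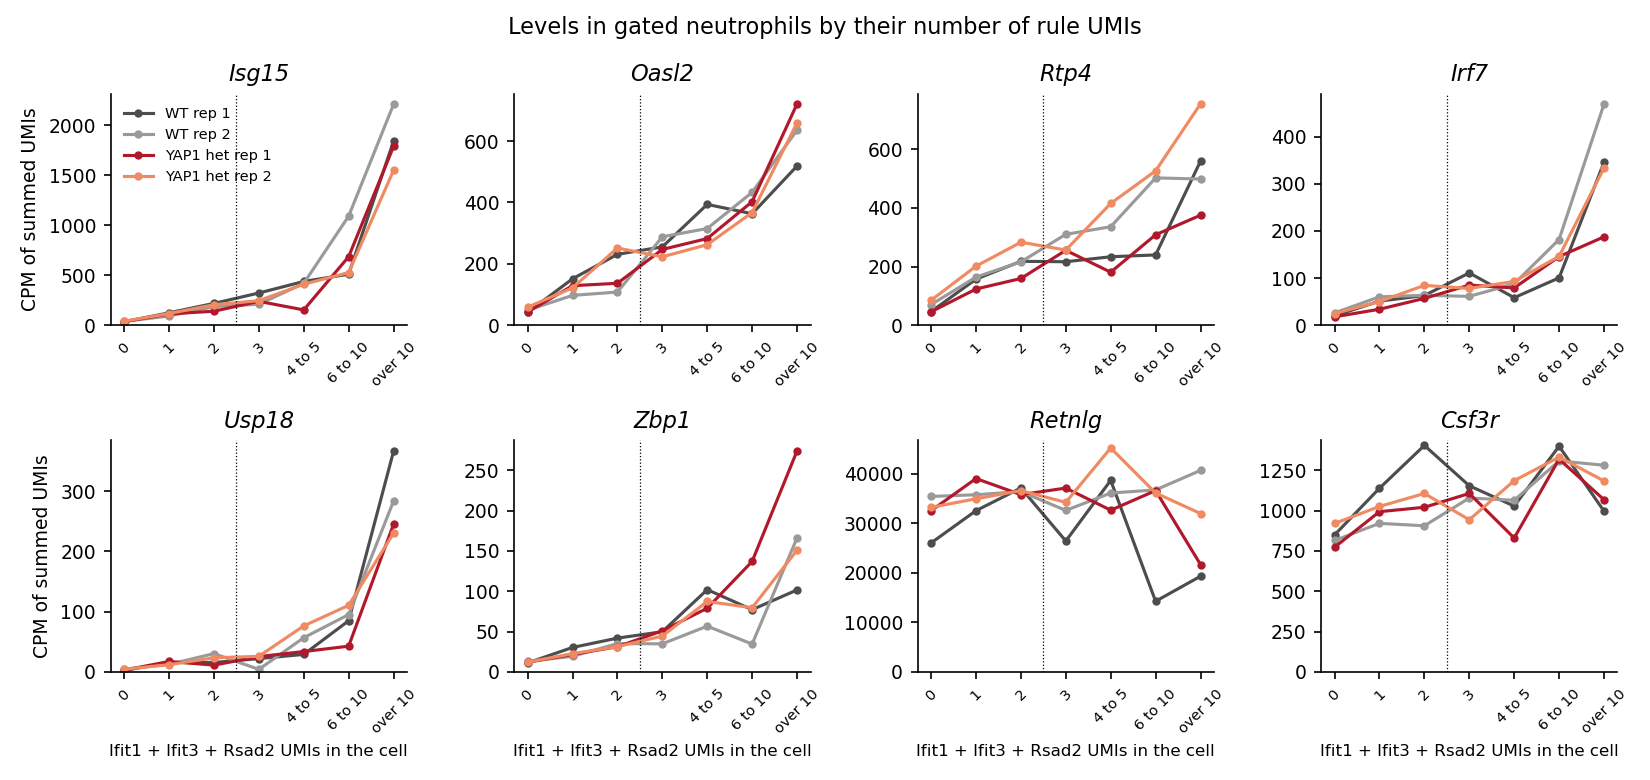
CPM of summed UMIs (linear axes) in gated neutrophils grouped by their Ifit1, Ifit3 and Rsad2 UMIs, 1 line per library; the dotted line marks the limit of 3. Isg15 climbs from 33.7 to 39.6 CPM at 0 to 1549 to 2209 CPM above 10, while Retnlg has no common slope and Csf3r goes from 773 to 919.995 CPM at 0 to 997 to 1281 CPM above 10.

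Of 10008 genes tested, 622 (6.22%) were called higher and 672 (6.71%) lower in interferon-response neutrophils at an adjusted p under 0.05. With the stricter S100 limit the calls fell to 188 higher (2.35%) and 47 lower (0.588%) of 7998. The interferon lists behaved differently: of 137 genes tested in all interferon lists together, 99 were called higher and 1 lower, with a median log2 fold change of 1.25 against -0.04 over all genes. With the stricter limit it was 86 of 133 higher and 1 lower, with a median of 1.12 against -0.03. So 86 of the 188 genes called higher there were on an interferon list. Over the 17 other settings and left-out libraries, between 80 and 114 of these genes were called higher.

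Interferon transcripts were not detected in these cells. The 15 interferon ligand genes in the files had 0 UMIs in interferon-response neutrophils, where the limit a count of 0 allows was 1.21 CPM over the 4 libraries together. The other gated neutrophils held 25 UMIs of these genes among 44833034, and 22 of the 25 were of Ifng. Counts this low do not set the classes apart. The receptors were present in both classes. Ifnar1, a chain of the type I receptor, was at 62.4, 46.8, 49.9 and 47.2 CPM against 40.8, 38.5, 37.9 and 38.9 CPM (log2 fold change 0.48 ± 0.15, adjusted p 0.047, edgeR). Il10rb, which pairs with the receptors for type III interferon and interleukin 10, and the kinase Jak1 were called higher as well, by 0.56 and 0.38. The other 6 of the 9 receptor and kinase genes were not called (median of the 9, 0.33), and with the stricter S100 limit none of the 9 was (Ifnar1 0.05, adjusted p 0.97, edgeR).

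Most interferon-activated and interferon regulatory transcription factors were higher. Of 9 tested, 7 were called higher and none lower (median 0.94), and 6 with the stricter limit. Irf7, which amplifies type I interferon responses, was at 138, 156, 112 and 141 CPM against 24.02, 31.1, 20.1 and 30.3 CPM, a log2 fold change of 2.46 ± 0.12 (adjusted p 4.5e-09, edgeR). Stat2 was at 55.0, 57.8, 60.3 and 52.2 CPM against 12.7, 11.7, 13.4 and 11.5 CPM (2.28 ± 0.18), and Irf9 changed by 1.41 ± 0.11. Irf1, Irf2 and Irf5 changed by 0.83, 0.74 and 0.94. Irf3 (-0.33) and Irf8 (0.61) did not pass.

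Sensors of foreign nucleic acid were called in part. Of 13 tested, 7 were called higher and none lower (median 0.73). Zbp1, a sensor of left-handed nucleic acid, was at 78.9, 62.4, 114 and 80.8 CPM against 13.9, 14.8, 13.3 and 14.2 CPM (log2 fold change 2.64 ± 0.17). The RNA helicases Ifih1 (MDA5), Ddx60 and Ddx58 (RIG-I) changed by 2.51, 2.03 and 1.80, with adjusted p values of 1.1e-06, 1.2e-09 and 1.4e-07 (edgeR). Trim25, the ubiquitin ligase of RIG-I, changed by 1.02. Among those that did not pass were the adaptor Mavs (-0.46), the DNA sensor Cgas (-0.39) and the endosomal receptors Tlr7 (0.29) and Tlr8 (0.51).

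Antiviral effectors were the largest group, with 48 of 56 tested called higher and none lower (median 1.70), and 43 of 55 with the stricter limit. Ifit3b, a paralog of Ifit3 whose 3' end reads may be shared with it, changed by 5.38 ± 0.17 and is uncertain for that reason. Ifit2 was at 78.8, 25.0, 74.9 and 74.6 CPM against 1.97, 2.10, 2.42 and 2.95 CPM (4.77 ± 0.29). WT replicate 2 was lowest, and 1 cell held up to 50.0% of its UMIs in a library. Cmpk2, a mitochondrial nucleotide kinase that lies beside Rsad2 on chromosome 12 (26469204 to 26479837, plus strand), was at 167, 175, 171 and 234 CPM against 23.9, 24.6, 18.0 and 24.9 CPM (3.12 ± 0.12).

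Other effector families followed. Slfn5 and Slfn8, of the Schlafen family of growth and antiviral regulators, changed by 3.48 ± 0.13 and 3.26 ± 0.16, and Slfn4 by 2.15. Slfn5 was at 414, 267, 245 and 297 CPM against 28.9, 28.0, 21.6 and 37.3 CPM, and it overlaps the antisense gene Slfn5os. Oasl1, a translational repressor of Irf7, changed by 3.52 ± 0.15, and it overlaps the antisense gene model Gm13822, from which its reads could not be separated here. Ifitm3, which blocks viral entry, was at 2465, 2738, 1972 and 2354 CPM against 991, 1225, 974 and 1284 CPM (1.18 ± 0.08). Its neighbours Ifitm1 and Ifitm2 changed by 0.40 and 0.28, and with the stricter limit neither was called (0.09 and -0.06).

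The list of genes for Isg15 conjugation and removal was called in full, 5 of 5 genes under both limits (median 2.91 and 3.25). Herc6, the ligase, was at 71.5, 51.5, 70.7 and 51.0 CPM against 8.55, 8.08, 8.29 and 8.93 CPM (2.91 ± 0.19). The conjugating enzyme Ube2l6 changed by 2.53 ± 0.28 and the activating enzyme Uba7 by 0.85. Usp18, which takes Isg15 off again, was at 101, 81.2, 64.5 and 93.2 CPM against 4.02, 6.58, 4.40 and 6.24 CPM (4.09 ± 0.20, adjusted p 4.8e-09, edgeR). Usp18 was the single called gene among 6 feedback inhibitors. Socs1 (0.66), Socs3 (0.41), Ptpn6 (0.19), Pias1 (0.25) and Ptpn2 (-0.12) were not called.

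Interferon-inducible GTPases, which attack the vacuoles of intracellular pathogens, were called higher in 9 of 10 tested (median 2.39). Irgm1 was at 101, 82.7, 89.4 and 77.1 CPM against 14.1, 11.6, 12.95 and 14.7 CPM (2.79 ± 0.15). Gbp7 changed by 2.30 ± 0.14 and Igtp by 2.48 ± 0.21. Gbp2 changed by 3.32 ± 0.18, but 1 cell held up to 42.4% of its UMIs in a library. In the PYHIN family of DNA-binding proteins, 8 of 10 were called (median 2.34), 7 of 10 with the stricter S100 limit (median 2.45), and 4 of 7 without barcodes holding markers of other cells (median 1.36). Against cells matched by depth it was 6 of 8 (median 1.325). The family was led in abundance by Ifi204 at 385, 309, 287 and 269.8 CPM against 55.9, 58.7, 53.2 and 63.1 CPM. These families hold near-identical paralogs, so the split among their members is uncertain.

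Genes of antigen presentation on MHC class I had smaller changes. Of 20 tested, 13 were called higher and none lower under both limits (median 0.60 and 0.58). B2m, the common light chain, was at 1352, 1317, 1188 and 1210 CPM against 948, 881, 899 and 1013 CPM (0.52, adjusted p 0.00042, edgeR). The peptide pump Tap1 changed by 1.30 ± 0.17 and the immunoproteasome subunits Psmb8 and Psmb9 by 0.79 and 0.93. The non-classical H2-T24 changed most, by 1.93 ± 0.16.

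Chemokines split. Cxcl10, a chemoattractant of T cells, was at 152, 21.9, 18.7 and 29.8 CPM against 17.7, 3.69, 1.73 and 0.954 CPM (3.45 ± 0.32, adjusted p 5.8e-06, edgeR), and a single cell held 34.9%, 85.7%, 88.9% and 100% of its UMIs in the 4 libraries. Ccl5, a chemokine of T and NK cells, was lower, at 1.83, 6.24, 2.08 and 3.73 CPM against 24.4, 48.7, 11.3 and 31.7 CPM (-2.96 ± 0.32). T and NK cell markers summed to 9.37 to 95.7 CPM in interferon-response neutrophils and to 225 to 321 CPM in the others; their part in the Ccl5 value was not tested.

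The ISRE core was more frequent before the genes that were higher. It occurred in 60 of the 495 called-higher genes with a promoter entry (12.1%), in 33 of 121 that were higher by at least 1 on the log2 scale (27.3%), and in 17 of 546 called lower (3.11%). Over all genes tested it was 3.50%. With the stricter S100 limit it occurred in 41 of 155 called-higher genes (26.5%). The GAS core TTCNNNGAA, which reads the same on both strands, was found in 10.51% of called-higher genes and 7.02% of all windows. These are counts of letters, given as a description.

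**Figure D4:**
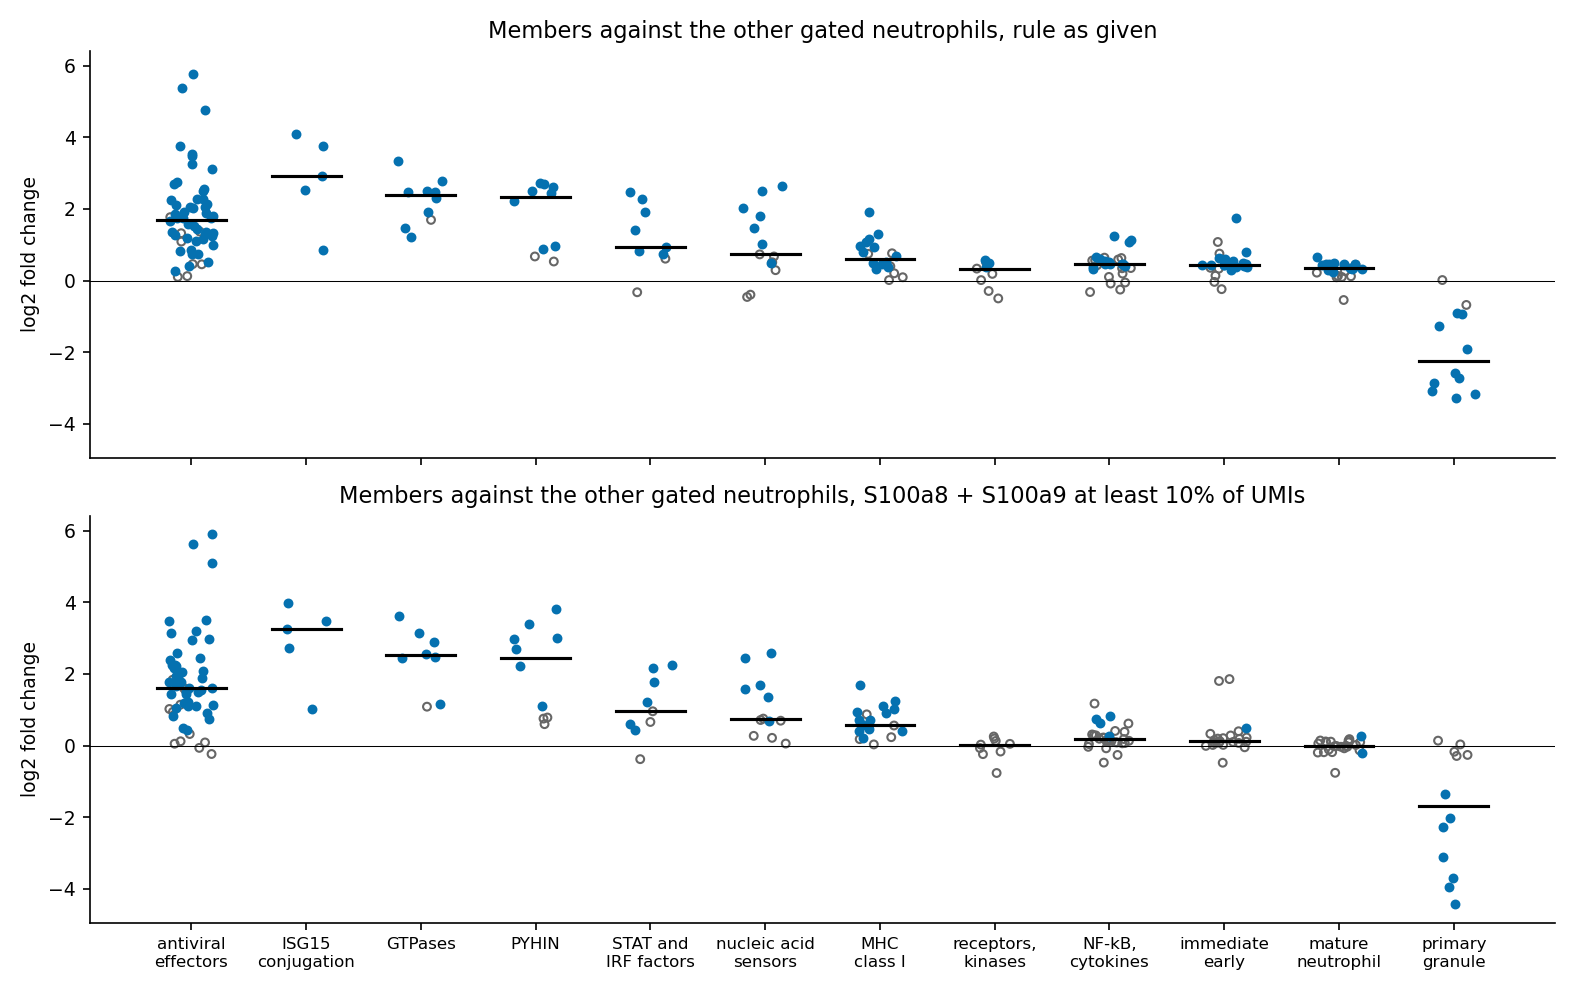
Log2 fold change of each tested gene by list, interferon-response against the other gated neutrophils, with the rule as given (top) and with S100a8 and S100a9 at least 10% of UMIs (bottom). Filled points passed an adjusted p of 0.05 and bars are medians; antiviral genes have medians of 1.70 and 1.61, while the median of mature neutrophil genes moves from 0.34 to -0.01.

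The calls among genes of mature neutrophils and of activation depended on the settings. Of 24 mature neutrophil genes, 14 were called higher with the rule as given (median 0.34), among them Csf3r (0.47 ± 0.07) and the chemokine receptor Cxcr2 (0.43 ± 0.07). With the stricter limit 1 was called higher and 1 lower (median -0.01), and Csf3r and Cxcr2 changed by 0.09 each. Of the 23 immediate early genes 16 were called higher, and 1, Atf3, with the stricter limit. Of 29 NF-kB and inflammatory genes 15 were called higher, and 4 with the stricter limit (median 0.47 and 0.18). Without the library block, 5 mature neutrophil, 4 immediate early and 3 NF-kB genes were called higher. In the same order it was 1, 3 and 4 at 5 rule UMIs or more. Against cells matched by depth it was 6, 11 and 6, and 1 mature neutrophil gene was called lower. Without barcodes holding markers of other cells it was 11, 12 and 12, and without Scrublet doublets 16, 19 and 17.

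The 4 NF-kB and inflammatory genes called higher with the stricter limit were Acod1, Ccl4, Ccrl2 and Il1b, named here after their values were seen. Acod1, which makes itaconate, was at 990, 610, 275 and 393 CPM against 575, 280, 120 and 182 CPM (1.13 ± 0.09, and 0.74 with the stricter limit). Il1b, interleukin 1 beta, changed by 0.66 ± 0.06 and 0.28. Both were higher in interferon-response neutrophils of every library, and both differed more between libraries than between the classes.

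Precursor genes were lower. Of 12 primary granule and precursor genes 10 were called lower (median -2.24), and 7 with the stricter limit. Fcnb, a ficolin of immature neutrophils, was at 5.50, 6.24, 89.4 and 34.8 CPM against 380, 256, 375 and 272 CPM (-3.29 ± 0.34). Elane was at 237, 34.3, 1466 and 659 CPM against 3963, 3551, 4013 and 2780 CPM (-3.15 ± 0.54), and Mpo changed by -2.57 ± 0.40 and Prtn3 by -3.07 ± 0.37. In YAP1 heterozygote replicate 1 a single cell held 97.6% of the Elane UMIs. Of 20 ribosomal protein genes 19 were called lower (median -0.57), and 1 with the stricter limit (median -0.10). Globin genes were called higher (Hbb-bs 3.67 ± 0.67, Hba-a1 3.39 ± 0.65), with up to 96.7% of the UMIs of Hbb-bs in 1 cell of a library.

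The study asked how cell percentages and expression differ between WT and YAP1 heterozygote marrow. Yap1 itself (chromosome 9, 7931999 to 8004596, minus strand) had 0 UMIs in interferon-response neutrophils and 1 in the others, so its level checks no label here. The share of interferon-response neutrophils among gated neutrophils came to 5.01% in WT replicate 1, with a Wilson 95% interval of 4.24 to 5.91, and to 7.02% in WT replicate 2 (6.01 to 8.17). For the YAP1 heterozygote libraries it came to 4.43% (3.64 to 5.38) and 6.77% (5.89 to 7.76). The groups overlapped: 6.01% ± 1.42 (SD, n = 2) in WT and 5.60% ± 1.65 (SD, n = 2) in YAP1 heterozygote, a difference of -0.413 percentage points with an exact two-sided permutation p of 0.667. The smallest p that 2 against 2 libraries allow is 0.33. The replicates differed by more than the genotypes, and within replicate numbers the differences were -0.576 and -0.251 points. After thinning every cell to 1500 UMIs the difference was 0.0386 points, without WT replicate 2 it was 0.591 and without YAP1 heterozygote replicate 1 it was 0.753, so its direction was not stable. The intervals cover counting error only.

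Within interferon-response neutrophils no gene passed the test of genotype, which had no replicate block. With such a block, a pairing that the labels do not state, 42 genes were called higher and 49 lower. Without it, 0 of 4850 genes tested with edgeR passed (0%), 211 had an unadjusted p under 0.05, and DESeq2 called 2 (Hbb-bs and Ebf1). Leaving out any 1 of the 4 libraries gave 34 to 56 calls. Of 111 interferon genes tested, 34 were higher and 77 lower in YAP1 heterozygote, with a median log2 fold change of -0.12 against 0.01 over all genes; without WT replicate 2 the median was 0.00. Isg15, at 669 and 751 CPM (WT) and at 539 and 566 CPM (YAP1 heterozygote), had the values of its groups apart but a log2 fold change of -0.37 ± 0.22 (adjusted p 0.9999, edgeR). Oasl2 (-0.08), Rtp4 (0.07), Irf7 (-0.21) and Usp18 (-0.17) had overlapping groups. Myh9, a non-muscle myosin heavy chain named in the study's title, was at 567 and 439 CPM (WT) and at 566 and 431 CPM (YAP1 heterozygote) (-0.02 ± 0.22).

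In the other gated neutrophils no gene passed either (0 of 11364, 0%, with 419 at an unadjusted p under 0.05), and 102 of 142 interferon genes were higher in YAP1 heterozygote (median 0.10 against -0.00 over all genes, and -0.07 without YAP1 heterozygote replicate 2). Whether the genotype difference itself varied between the classes was tested directly, and none of 141 interferon genes passed. Of 10698 genes in that test 13 passed (0.122%). All 13 lie outside the interferon lists, and for 8 of them 1 cell held over 90% of the UMIs in a library.

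NF-kB and inflammatory genes were lower in YAP1 heterozygote in both classes without passing the test, which had no replicate block. With that block, a pairing that the labels do not state, 10 were called lower and 1 higher in interferon-response neutrophils. The values that follow are without it. In interferon-response neutrophils 19 of 24 were lower (median -0.71), and in the others 28 of 29 (median -0.81), from the same 4 libraries. Tnfaip3, a brake on NF-kB, was at 405 and 84.3 CPM (WT) and at 52.0 and 48.5 CPM (YAP1 heterozygote) (-2.24 ± 0.56, adjusted p 0.57, edgeR). Nfkbia, the inhibitor that NF-kB induces, was at 2408 and 807 CPM against 609 and 533 CPM (-1.46 ± 0.39, adjusted p 0.69, edgeR). WT replicate 1 stood far above the other 3 libraries for both. Without it the medians were -0.50 in interferon-response neutrophils and -0.26 in the others. Without WT replicate 2 they were further from 0 (-1.009 in interferon-response neutrophils). That fit sets WT replicate 1 alone against the YAP1 heterozygote libraries, so it does not show a difference by genotype.

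**Figure D5:**
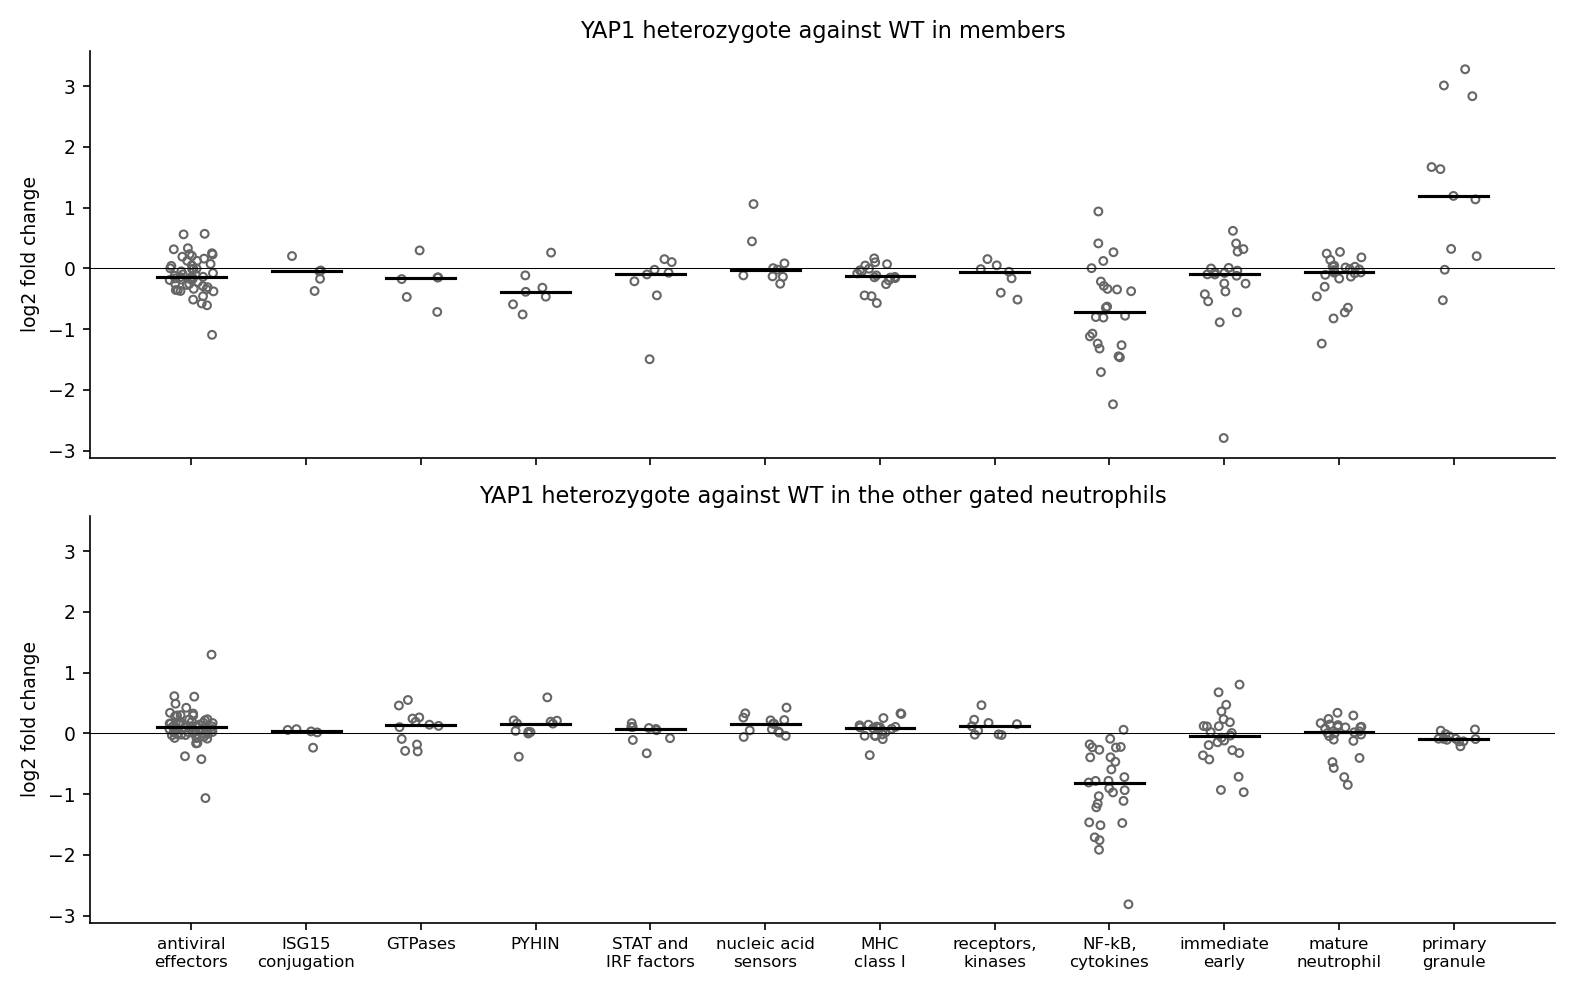
Log2 fold change of each tested gene by list, YAP1 heterozygote against WT, in interferon-response neutrophils (top) and in the other gated neutrophils (bottom). No point passed an adjusted p of 0.05 (open points) and bars are medians; NF-kB genes have medians of -0.71 and -0.81, and antiviral genes of -0.14 and 0.10.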

How the data were processed

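For each of 4 libraries the authors deposited a matrix of UMI counts per gene (32544 genes) and barcode, with no normalization. The counts came from Cell Ranger 5.0.0 per the file headers, but version 3.0.0 of it is named in the submitters' processing notes, beside Seurat 4.3.0 and the builds GRCm38 and mm10. Gene positions are from GENCODE M21 (GRCm38).

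UMIs were summed per library over interferon-response and over other gated neutrophils, and tested with edgeR 4.0.16 (quasi-likelihood, filterByExpr, TMM, Benjamini-Hochberg, threshold 0.05). The class comparison had the library as a block, and genotype had none. Genes of the rule got no test. Each SE of a log2 fold change was its absolute value divided by the square root of the test's F statistic. Alternatives were DESeq2 1.42.0 and removal of doublets marked by Scrublet (scanpy 1.11.5, at a preset rate of 0.8% for every 1000 barcodes), and doublets were not removed otherwise. Shares carry Wilson intervals (95%). The tests were tried on simulated counts.

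Named genes were the 6 markers (Ifit1, Ifit3, Rsad2, Isg15, Oasl2, Rtp4), the 14 most raised and 8 most lowered among called genes whose log2 CPM averaged 5 or more and that went 1 way in all 4 libraries, up to 4 genes per interferon list, and Yap1 and Myh9; other genes appear as list members. The cells, lists and tests were chosen with earlier results of these data known. The values of 1 gene are not reported here.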

Additional observations from a re-analysis of the deposited data

Results flagged for a closer look

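For 13 genes the YAP1 heterozygote against WT difference was not the same in interferon-response and other gated neutrophils, by edgeR's quasi-likelihood test of the difference between the classes (adjusted p under 0.05). The value given is the log2 difference in interferon-response neutrophils minus that in the others. Markers of other lineages were among them. Jchain (-9.87) and Igkc (-4.81), immunoglobulin genes of plasma and B cells, and Prg2 (-5.40), an eosinophil granule gene, had negative values. Mcpt8 (5.50) and Prss34 (5.95), proteases of basophils, and Ebf1 (1.89) and Vpreb3 (2.63), genes of B cell precursors, had positive ones. Neutrophil precursor genes were Prtn3 (2.04), Ms4a3 (2.88), Fcnb (3.22) and Elane (3.32), followed by Serpinb1a (1.33) and Gstm1 (1.61).

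For 8 of the 13, 1 cell held over 90% of the UMIs of the interferon-response neutrophils in a library. In WT replicate 2 a single cell held 99.1% of the 996 Jchain UMIs and 98.1% of the 7274 Igkc UMIs. In YAP1 heterozygote replicate 1 a single cell held 99.7% of the 311 Mcpt8 UMIs and 99.9% of the 745 Prss34 UMIs. With S100a8 and S100a9 at least 10% of UMIs, 2 of the 13 passed, Ebf1 (1.66) and Vpreb3 (2.03). With the rule as given, Ebf1 was at 45.8 and 20.3 CPM in WT and 114 and 173 CPM in YAP1 heterozygote. In the other gated neutrophils it was at 57.3 and 60.3 CPM and at 71.9 and 68.4 CPM. Vpreb3 was at 36.7 and 3.12 CPM and at 129 and 198 CPM. Its levels in the others were 42.9 and 44.6 CPM and 54.1 and 68.1 CPM. With barcodes holding markers of other cells (0.5% of UMIs or more) left out, 2 passed, Jchain and Igkc, while Ebf1 (0.48) and Vpreb3 (0.84) did not. Ebf1, Vpreb3, Mcpt8 and Prss34 are themselves among those markers. Barcodes rich in them were therefore removed by this setting, which cannot serve as an independent check of these genes. Without the top cell of each gene 4 passed, Jchain (-6.05), Igkc (-1.89), Ebf1 (2.10) and Vpreb3 (3.23).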

How the results depend on the processing

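Genes called higher and lower in interferon-response neutrophils (622 and 672) were 188 and 47 with S100 at least 10%, 1247 and 1155 at 2 rule UMIs, 145 and 141 at 5, 1234 and 1994 at 0.1% of UMIs, 242 and 147 against cells matched by depth, and 1286 and 1456 without the top cell of each gene, a setting chosen after seeing the data. Without a library block 351 were higher. Leaving out 1 library gave 382 to 519 higher and 446 to 524 lower. The share's difference was 0.0386 and 0.143 points after thinning (at least 3 and 2 UMIs), and -1.58 to 0.753 with 1 library left out. Genes differing by genotype were 0, but 4 without Scrublet doublets, 4 at 2 rule UMIs, 2 with DESeq2, 77 with no filter and 4 without top cells. They were 34 to 56 with 1 library left out, where a group left with 1 library borrows its spread from the other. The 13 genes whose genotype difference varied by class became 25 without Scrublet doublets, 3 without other-cell markers, 7 with S100 at least 10%, 31, 2 and 4 at 2 and 5 rule UMIs and 0.1%, 8 against cells with 0 rule UMIs, 5 matched by depth, 28 with DESeq2 size factors, 2 with DESeq2, 58 with no filter, 30 without top cells and 41 to 116 with 1 library left out. Myh9 changed sign between classes with S100 at least 10% (-0.073) and matched by depth (-0.01725), and passed the test without top cells (0.305, adjusted p 0.0012, edgeR). By genotype it was 0.0194 without other-cell markers, 0.107 at 5 rule UMIs, 0.02729 at 0.1%, and -0.180 to 0.145 with 1 library left out. Of the other single-gene values 857 kept direction and side of the threshold and 29 lost the call. The causes were not tested.

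The labels do not say that replicate numbers pair the libraries, although Ddx3y and Xist divided replicate 1 from replicate 2 in both genotypes. Deviations of replicate 1 libraries from their group means correlated at 0.286 over 4870 genes, from 2 pairs. With the replicate block, 91 genes differed by genotype (42 higher, 49 lower), among them 1 NF-kB gene higher and 10 lower (7 lower in the other gated neutrophils). The share's difference of -0.413 points cannot change with that block, since each replicate number holds 1 library of each genotype.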
